A study of Mus musculus with 9 samples.

Results

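Leukemia inhibitory factor (LIF) is the cytokine that keeps mouse embryonic stem cells pluripotent in culture. It binds the receptor chain encoded by Lifr together with the shared signal-transducing chain encoded by Il6st, and kinases bound to these chains phosphorylate the transcription factor STAT3, which then enters the nucleus. Known targets of this route include Socs3, which encodes a feedback inhibitor of the receptor, the kinase gene Pim1, the genes of the transcription factors JUNB and MYC, and Klf5 and Gbx2, whose products help to hold the pluripotent state. The regions described here are those of 5 deposited peak lists whose midpoint fell in 9 fixed windows of the mm9 genome, each named after 1 of these genes and 210 to 270 kb wide. They numbered 482 of the 202373 regions listed in all. Of them 426 were plasmid input regions, 14 mESC enhancers, 5 LIF-dependent enhancers, 0 RA-induced enhancers and 37 RARA peaks.

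The study measured enhancer activity in E14 mouse embryonic stem cells, an established line grown without feeder cells, by FAIRE-STARR-seq. In this assay fragments of accessible DNA are cloned behind a promoter on a plasmid, so that an active fragment is transcribed as part of the reporter RNA. The plasmid library (1 sample, the plasmid input) came from accessible DNA of cells given 1 µM retinoic acid (RA) for 4 h. DNA that is closed under RA could therefore be missing from it. Reporter RNA was sequenced from transfected cells kept with LIF (3 samples) and from transfected cells that lost LIF and received 1 µM RA for 4 h (3 samples). ChIP-seq of the retinoic acid receptor RARA was made in cells given 1 µM RA for 4 h (1 sample), with 1 sample of input DNA. The loss of LIF and the addition of RA came together and cannot be told apart. The reporter tests a fragment outside its place in the genome, and the lists hold no RNA levels, so the identity of the cells was not checked against marker genes. mESC enhancers were called as LIF over plasmid input, LIF-dependent enhancers as LIF over RA, and RA-induced enhancers as RA over LIF. Enhancers were called on merged samples and the other lists on 1 sample, so the values below have no replicate error and no known depth. Fold enrichment is the authors' value at the summit of a peak. Intervals on shares are 95% Wilson intervals that cover counting error only and treat regions as independent.

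A window is a stretch of DNA, not a gene. In the gene order of RefSeq (GRCm38.p6), Stat3 lies between Stat5a and Cavin1, with Stat5b beyond Stat5a, Junb between Prdx2 and Hook2, Pim1 between Fgd2 and Tmem217, Socs3 between Tha1 and Pgs1, and Lifr between Osmr and Egflam. Regions in a window were not assigned to one of these genes, and exons, introns and start sites in mm9 were not analysed here. Below, a gene name given to a region names its window only.

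The sequences of the listed regions were not analysed here. For the genes themselves, the RefSeq promoter table (GRCm38.p6) gave the 250 bases before and 50 after a start site for 7 of the 9 genes. Myc and Klf5 were not matched. STAT3 binds a palindrome written here as TTCCNGGAA, where N is any base, and motifs were searched on both strands. None of the 7 genes held it in any of their 9 promoters, against 1.15% of all 32851 promoters in the table. Here and below, a gene counted if any of its promoters matched, while shares of the table are per promoter. A looser form, TTCNNNGAA, which includes the first, was found in 8.30% of all promoters and in 1 of the 7 genes, Socs3. Of 20 other genes of the pathway and its known targets, 16 were matched, and 2 of them, Cish and Bcl6, held the strict form. The sequences below show the Socs3 match within the 250 bases before its start site (GRCm38.p6 chr11:117969367-117969616, minus strand) and, for comparison, the strict form before the start site of Bcl6 (chr16:23981433-23981461, minus strand), with the matched letters in capitals.
Socs3: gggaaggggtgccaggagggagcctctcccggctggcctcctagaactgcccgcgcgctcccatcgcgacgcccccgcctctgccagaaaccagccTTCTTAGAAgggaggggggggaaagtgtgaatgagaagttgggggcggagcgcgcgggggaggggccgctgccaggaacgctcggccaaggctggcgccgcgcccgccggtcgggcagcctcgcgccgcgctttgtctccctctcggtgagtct
Bcl6: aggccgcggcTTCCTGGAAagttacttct
The Socs3 match began 154 bases before the start site and that of Bcl6 168 bases before it. Retinoic acid receptors bind direct repeats of AGGTCA, and such repeats with a spacing of 1, 2 or 5 bases were found in none of the 7 genes or the 16, against at most 0.0396% of all promoters for each spacing. A looser form, with A or G as the first and G or T as the third base of each copy, was held by 0.588% of all promoters and by none of these genes. A match or its absence describes these letters in this stretch only.

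Enhancers listed with LIF lay in 8 of the 9 windows, all but that of Lifr. Input regions mark DNA found in the plasmid library, and 14 of the 426 in the windows (3.29%, 1.97 to 5.44%) held an mESC enhancer, each a different one. Over all input regions of the genome 2.47% did, which lies inside that interval, so the loci as a set were close to the background of the library. The Junb window held 3 enhancers, the windows of Stat3, Pim1, Myc and Klf5 held 2 each, and those of Il6st, Socs3 and Gbx2 held 1 each. By role, 1 of 78 input regions at the receptor genes held an enhancer (1.28%, 0.227 to 6.91%), against 13 of 348 in the other 7 windows (3.74%, 2.20 to 6.29%), and the intervals overlap. In the Lifr window 0 of 37 input regions held an enhancer, which allows a share of up to 8.11%.

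**Figure D1:**
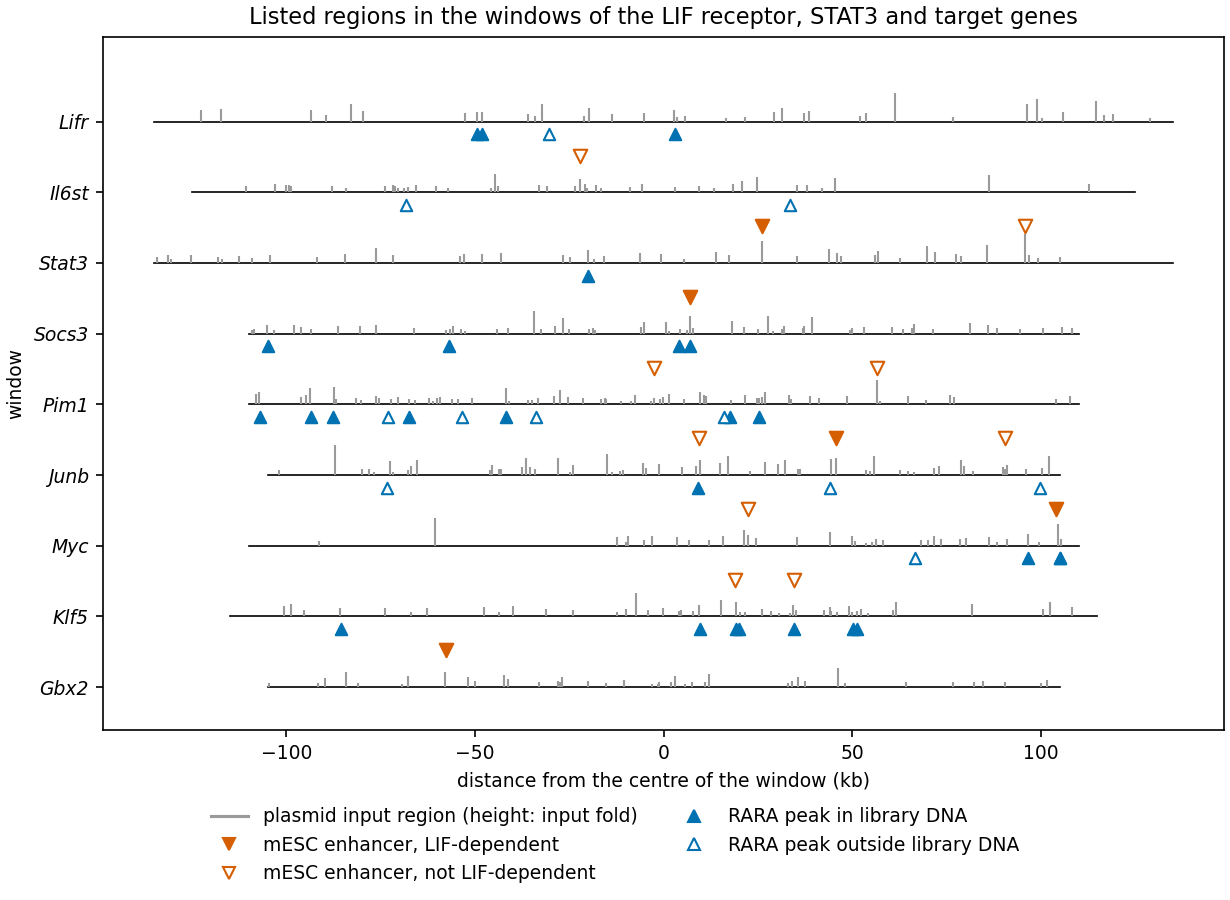
Map of the listed regions in the 9 windows, with distance from the centre of each window on the x axis (kb) and 1 line per window. Grey bars are plasmid input regions (height proportional to input fold enrichment), triangles above a line are mESC enhancers (filled where LIF-dependent) and triangles below it RARA peaks (filled where in library DNA); Lifr has no enhancer, Gbx2 no RARA peak, and Pim1 the most RARA peaks, 11.

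The library itself covered the windows unevenly. Input regions numbered from 35 in the Myc window to 65 in the Pim1 window and took up from 4.79% of the DNA of the Lifr window to 10.5% of that of the Junb window. Input fold enrichment describes how well the plasmid library represents a region, over a background that is not stated. Its median was 4.88 over the window regions and 5.48 over all input regions, and by window it ran from 3.99 at Gbx2 to 6.33 at Lifr. The Lifr window had the highest median and no enhancer. Its 0 of 37 input regions allows a share of up to 8.11%, beside 2.47% of all input regions. That count is not told apart from the background.

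Enhancers sat in well represented DNA. The 14 input regions that held one had a median input fold of 10.6 (4.18 to 20.3), against 4.84 in the other 412, and a median width of 511 bp against 309 bp. In the whole series the medians were 12.8 with an mESC enhancer and 5.37 without. Enhancers were called over the plasmid input, and the part of library representation in the calls was not tested. Among the 18 input regions that rank first or second by input fold in their window, 5 held an enhancer. The top region of the Stat3 window (chromosome 11 from 100870543 to 100870908, input fold 20.3) and that of the Pim1 window (chromosome 17 from 29686479 to 29686800, 17.1) were among them. The top region of the Junb window (chromosome 8 from 87417562 to 87418015) had a higher input fold, 21.0, with no enhancer and no RARA peak. The same held for the top regions at Lifr (chromosome 15 from 7176271 to 7176560, 20.2) and Myc (chromosome 15 from 61759302 to 61759740, 19.9). Each of these 5 regions had a higher input fold than at least 98.0% of all input regions, and 2 of the 5 held an enhancer. The top regions at Socs3, Klf5, Gbx2 and Il6st, with input folds of 16.0, 16.5, 13.5 and 12.6, also held no enhancer. The regions that rank second held one at Stat3, Socs3 and Myc (input folds of 15.2, 12.3 and 15.2). At Pim1 the second (12.3) held a RARA peak and no enhancer. Those at Lifr, Junb, Il6st, Klf5 and Gbx2, with 15.7, 14.6, 12.3, 11.9 and 10.9, held neither. In the top 10% of the input list, which starts at a fold of 10.8, 6 of 40 window regions held an mESC enhancer (15.0%, 7.06 to 29.1%), beside 15.7% over the whole top 10%.

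**Figure D2:**
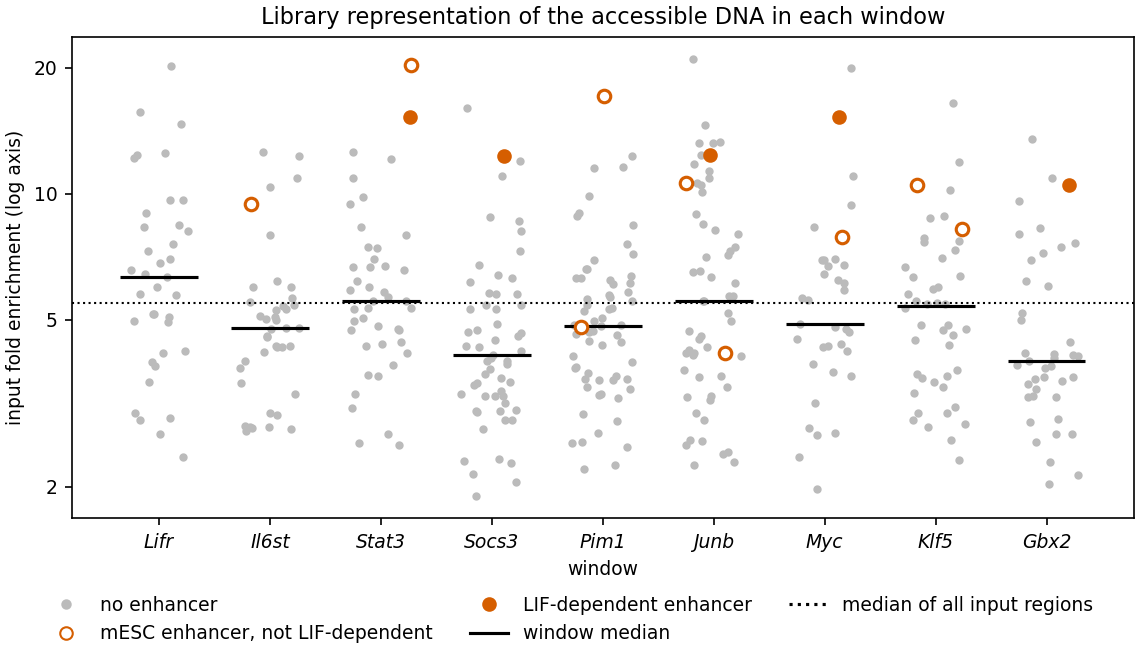
Input fold enrichment (y axis, log scale) of each of the 426 input regions by window, with points spread sideways for display. Open and filled orange circles hold an mESC enhancer (filled: LIF-dependent); the 5 LIF-dependent ones lie between 10.5 and 15.2, and black lines give each window's median and, dotted, the median of all input regions, 5.48.

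Of the 14 mESC enhancers, 5 were also listed as LIF-dependent, 1 each at Stat3, Socs3, Junb, Myc and Gbx2. That is 35.7% (16.3 to 61.2%), beside 12.8% of all mESC enhancers. That background lies below the interval here, but inside it with windows widened by 50 kb on each side (5 of 19, 11.8 to 48.8%) or narrowed by 50 kb (3 of 10, 10.8 to 60.3%), and without the Socs3 or the Gbx2 window (4 of 13 in both cases, 12.7 to 57.6%). Counted over input regions it is 5 of 426 (1.17%, 0.502 to 2.72%), beside 0.311% of all input regions. The receptor windows, Pim1 and Klf5 had none. Pim1 and Klf5 held 2 mESC enhancers each, Il6st 1 and Lifr 0. With so few per window, this absence is not told apart from the share of 12.8%. The 9 genes were chosen for their link to LIF signalling, so these shares describe the windows and were not tested. With the enhancer and RARA lists restricted to their upper 50% by fold, 1 of 6 mESC enhancers was LIF-dependent (16.7%, 3.01 to 56.4%), beside 7.01% of all mESC enhancers so restricted.

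The median LIF over RA fold of the LIF-dependent enhancers at these loci lay below that of their list. Singly they stood above 3.99% (Gbx2) to 56.6% (Myc) of the list, with Stat3 at 46.8%. A difference from the list was not tested. Their LIF over RA fold had a median of 3.23 (2.50 to 5.66), beside 5.25 over the 601 LIF-dependent enhancers, and 1 of the 5 lay above that median. Their summits lay 0 to 4 bp from those of the LIF over input calls. Both lists were called on the same merged LIF samples, so this closeness is not agreement between independent measurements. The input regions that held them had input folds of 10.5 to 15.2, while those of the other 9 enhancers ran from 4.18 to 20.3. Over the whole series, input regions with a LIF-dependent enhancer had a median input fold of 12.3, beside 12.9 for those with other mESC enhancers.

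The Myc window held the 1 of the 5 with the highest folds, over input and over RA, though not the highest activity score, which was at Junb. MYC is a transcription factor of growth and metabolism that can stand in for LIF when kept active in these cells. The LIF-dependent enhancer of this window lay on chromosome 15 from 61924237 to 61924745, 104 kb from the centre of the window and 5.51 kb inside its edge. It had a fold of 15.8 over input, higher than 87.8% of mESC enhancers, a −log10 q of 145 and an activity score of 2.79. The score is deposited per mESC enhancer with no stated scale, and its median over the list was 2.51. The LIF over RA fold was 5.66, the highest in the windows. The other Myc enhancer, 82.0 kb away at 61842310 to 61842700, had a fold of 10.3 and a score of 2.40 and was in neither list of changed enhancers.

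At Stat3, the gene of the transducer itself, the LIF-dependent enhancer lay on chromosome 11 from 100800747 to 100801166. Its fold over input, 3.62, was the lowest of the 14, and only 1.86% of mESC enhancers were lower. Its LIF over RA fold, 5.03, was the second highest of the 5 and stood above its fold over input. That order was seen at 1 of the 5 enhancers, and at 22.3% of all 600 mESC enhancers with both values. The region was the only window enhancer with more than 1 summit. Its 2 summits, at 100800867 and 100801030, appeared in both lists, which share their LIF samples, with LIF over RA folds of 4.91 and 5.03. The second Stat3 enhancer, 69.7 kb away from 100870550 to 100870906, had a fold of 13.1 over input and a score of 2.89 and was not listed as LIF-dependent. Of the 2 enhancers in this window, the weaker over input was therefore the one listed as changed. At Myc (15.8) and Junb (15.3) the LIF-dependent enhancer was instead the strongest of its window over input.

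At Socs3, whose product shuts off the receptor, the single enhancer lay 6.94 kb from the centre of the window, on chromosome 11 from 117836757 to 117837132. It had a fold of 7.24 over input, a score of 2.24 and a LIF over RA fold of 3.10. At Gbx2, a homeobox gene, the single enhancer lay on chromosome 1 from 91767131 to 91767618, in the widest host region of the 14 (1466 bp). It had a fold of 8.40 over input, a score of 2.23 and a LIF over RA fold of 2.50, the lowest of the 5 and above 3.99% of the LIF-dependent list.

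The Junb window held the 2 highest activity scores. JUNB is a subunit of the AP-1 transcription factor, and its gene responds early to cytokines. The LIF-dependent enhancer, on chromosome 8 from 87550554 to 87550906, had a fold of 15.3 over input, a score of 3.18 and a LIF over RA fold of 3.23. The enhancer from 87595481 to 87595701 had the highest score, 3.65, above 93.9% of the list, with a fold of 12.9. Its host region was the least represented of the 14 (input fold 4.18, above 26.9% of all input regions). The third, from 87514261 to 87514594, had a fold of 10.9 and a score of 2.38. The 3 summits were 36.3 and 44.8 kb apart, and all 3 folds lay above the median of the mESC list, 8.62.

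The remaining 5 enhancers all had folds and scores below the medians of the list. The window of Il6st, the gene of the shared receptor chain, had 1 enhancer on chromosome 13 from 113252619 to 113253040. It had a fold of 4.78 and the lowest score of the 14, 1.51. The Pim1 window had 1 from 29627148 to 29627503 on chromosome 17 with a fold of 3.70, a score of 1.71 and the lowest −log10 q, 3.73. The second Pim1 enhancer, from 29686540 to 29686761, had a fold of 5.93 and a score of 1.84 although its host region was the best represented of its window. The window of Klf5, a gene of the Krüppel-like factor family, had enhancers 15.5 kb apart on chromosome 14. They lay from 99723845 to 99724288 (fold 6.51, score 1.96) and from 99739421 to 99739726 (fold 8.42, score 2.06). Over the 14 the median fold was 8.41 and the median score 2.24, beside 8.62 and 2.51 over the list, and 6 and 4 of them respectively lay above the list's median. The LIF-dependent enhancers (median fold 8.40) and the other 9 (8.42) did not stand apart in their activity with LIF, and their ranges overlapped.

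**Figure D3:**
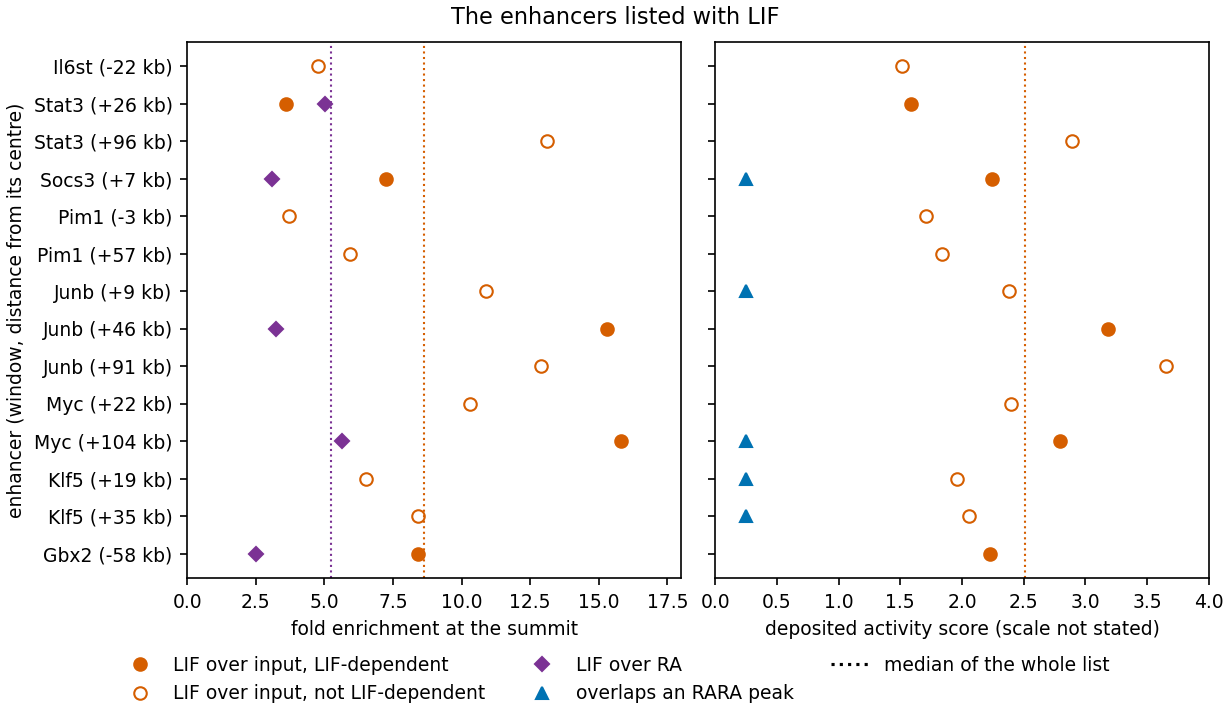
The 14 mESC enhancers, named by window and distance of the summit from its centre. Left, fold enrichment over plasmid input (circles, filled where LIF-dependent) and LIF over RA (diamonds); right, the deposited activity score, with blue triangles marking the 5 that overlap an RARA peak; dotted lines are the medians of the whole lists (8.62, 5.25 and 2.51).

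No RA-induced enhancer fell in any window. The share was 0 of 426 input regions, which allows up to 0.704%, and 0.201% of all input regions held one, so a count of 0 is not told apart from the background. Of the 14 mESC enhancers 0 were RA-induced, which allows up to 21.4%, beside 4.17% of the list. The nearest RA-induced enhancer lay 29.0 kb outside the Junb window (chromosome 8 from 87370871 to 87371086), with an RA over LIF fold of 3.89, and it was also an mESC enhancer. The next nearest was 394 kb from the Stat3 window (chromosome 11 from 101303414 to 101303739, fold 2.50), and for the other 7 windows the distance ran from 934 to 13433 kb. At the edges, the mESC enhancer nearest inside was that of Myc, 5.51 kb from the edge, and the nearest outside, of fold 14.0, lay 4.20 kb beyond the Stat3 window.

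RARA peaks lay in every window but that of Gbx2. RARA is a nuclear receptor that binds DNA with a retinoid X receptor partner and activates nearby genes when RA is bound. In the windows 28 of 426 input regions overlapped a RARA peak (6.57%, 4.59 to 9.34%), beside 2.94% of all input regions, which lies below the interval. The share was highest at Klf5 (7 of 46, 15.2%, 7.57 to 28.2%) and Pim1 (8 of 65, 12.3%, 6.37 to 22.5%), and was 0 of 41 at both Il6st and Gbx2, which allows up to 7.32%. The window input regions with a RARA peak had a median input fold of 7.08, against 4.83 in those without, and the part of representation in the overlap was not tested. Of the 37 peaks 26 overlapped an input region (70.3%, 54.2 to 82.5%), beside 55.6% of all RARA peaks, which lies inside the interval. All 7 peaks at Klf5 and all 4 at Socs3 did, against 0 of 2 at Il6st and 1 of 4 at Junb.

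The strongest binding was in the Pim1 window. Over the 37 peaks the median RARA fold was 3.14 (2.27 to 17.6), beside 3.06 over all 9757 peaks. The 11 peaks at Pim1 had a median of 4.99, and 5 of them lay in the top 10% of the list, which starts at 5.78. The highest, 17.6, was on chromosome 17 from 29521947 to 29523123, 2.53 kb inside the window's edge, where it ranked 58 in the whole list. It had a second, weaker summit of fold 3.92. The next, 16.6, was at 29647261 to 29648129, 17.7 kb from the centre, and ranked 68. Those from 29587996 to 29588820 (8.80), from 29542268 to 29542709 (6.72) and from 29536040 to 29536497 (6.09) followed, and the other 6 ran from 2.27 to 4.99. None of the 11 overlapped an enhancer of any list. For mESC enhancers, 0 of 11 allows a share of up to 27.3%, beside 8.87% of all RARA peaks, so the count is not told apart from that background. The strongest 2 were 38.0 and 20.4 kb from the nearest mESC enhancer summit. All 5 of the strong peaks lay in library DNA, with input folds of 3.31 to 12.3. The 5 strongest RARA peaks of the Pim1 window thus lay in library DNA that was in none of the 3 enhancer lists, a count too small to tell from that background. The only other window peak in the top 10%, of 6.17 at Junb, was outside the library.

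**Figure D4:**
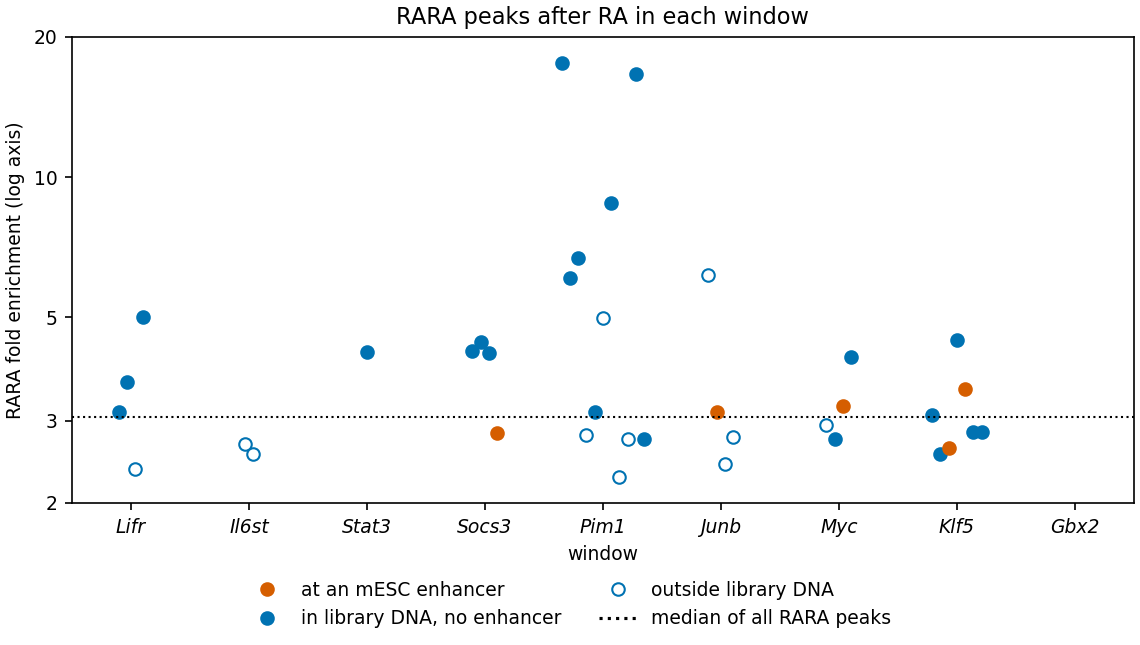
RARA fold enrichment (y axis, log scale) of the 37 RARA peaks by window, in order along the chromosome. Orange points overlap an mESC enhancer, filled blue points lie in library DNA without one and open points outside it; the 5 peaks at enhancers lie between 2.62 and 3.51, near the dotted median of all RARA peaks, 3.06.

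The RARA peaks at enhancers were of middling strength, with folds on both sides of the list's median of 3.06. Of the 14 mESC enhancers 5 overlapped a RARA peak (35.7%, 16.3 to 61.2%), beside 18.5% of all mESC enhancers, which lies inside the interval. Counted over binding sites, 5 of the 37 RARA peaks lay at an mESC enhancer (13.5%, 5.91 to 28.0%), beside 8.87% of all RARA peaks. The enhancers were both of Klf5, the single one of Socs3, 1 of 2 at Myc and 1 of 3 at Junb. Those of Socs3 and Myc were LIF-dependent, giving 2 of 5 LIF-dependent enhancers with RARA (40.0%, 11.8 to 76.9%). The share of all LIF-dependent enhancers, 16.6%, lies inside that interval. The other 3 LIF-dependent enhancers, at Stat3, Junb and Gbx2, had their nearest RARA summit 46.1, 1.77 and 366 kb away. The 5 RARA peaks had folds of 2.62 and 3.51 at Klf5, 2.83 at Socs3, 3.23 at Myc and 3.14 at Junb. Their median, 3.14, compares with 3.40 for all 865 RARA peaks at an mESC enhancer. RARA and enhancer summits were 7 and 93 bp apart at Klf5, 28 bp at Socs3, 25 bp at Myc and 338 bp at Junb. At Junb the peak reached the enhancer by its edge only: with an overlap of at least 50% of the shorter region, or with a summit of 1 region inside the other, 4 of the 14 overlapped (28.6%).

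At 3 of these 5 enhancers a stronger RARA peak lay beside the enhancer. At Klf5 a peak of fold 4.47 (chromosome 14 from 99724862 to 99725145) had its summit 0.962 kb from the enhancer summit, where the overlapping peak had 2.62. At Myc a peak of 4.11 (chromosome 15 from 61925198 to 61925534) lay 0.919 kb from the LIF-dependent enhancer, where the overlapping peak had 3.23. At Socs3 a peak of 4.19 (chromosome 11 from 117834061 to 117834329) lay 2.74 kb away, against 2.83 at the enhancer. Neighbouring peaks were chosen as ones that did not overlap the enhancer itself. All 3 were in input regions that held no enhancer, which is partly set by that choice. Of all input regions 2.47% held an mESC enhancer, and of all RARA peaks 8.87% overlapped one, so this count is not told apart from the background. Among all 866 mESC enhancers with a RARA peak, 24.4% had another RARA peak with its summit within 3 kb, and 9.47% had a stronger one. The distance of 3 kb and the comparison were chosen after the values were seen.

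In both receptor windows no RARA peak overlapped an mESC enhancer, and the same held at Pim1 and Stat3. Of all RARA peaks 8.87% overlapped one, and with so few peaks per window this absence is not told apart from that background. The Lifr window also held no enhancer to overlap. At Lifr 4 peaks had folds of 3.14 (from 7065430 to 7065758), 3.63 (from 7066833 to 7067004), 2.36 and 5.00. The strongest lay on chromosome 15 from 7117908 to 7118225, 3.07 kb from the centre, in an input region of fold 8.17. The first and second were also in library DNA. The mESC enhancer summit nearest to any of the 4 was 1066 kb away. At Il6st the 2 peaks, of 2.68 (chromosome 13 from 113206474 to 113206960) and 2.55, were outside the library regions. Stat3 had 1 peak, of 4.21, on chromosome 11 from 100754776 to 100754984 in library DNA, 46.1 kb from its LIF-dependent enhancer. The Junb peak of 6.17 lay on chromosome 8 from 87431532 to 87432022. It was outside the library, as were 10 of the other peaks of the windows, with folds of 2.27 to 4.99.

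The other RARA peaks in library DNA are those left after the peaks at mESC enhancers were set aside. Their lack of overlap follows from that selection. Over all window peaks 5 of 37 (13.5%) overlapped an mESC enhancer, beside 8.87% of all RARA peaks. The Socs3 window had peaks of 4.23 (chromosome 11 from 117724549 to 117724963) and 4.43 (from 117772997 to 117773820), and both were stronger than the one at the enhancer. The Klf5 window had peaks of 3.09 (chromosome 14 from 99619259 to 99619427), 2.55 (from 99714704 to 99714888) and 2.84 at both 99754895 to 99755234 and 99756115 to 99756307. Around Klf5 the 7 peaks thus ran from 2.55 to 4.47, and none reached the top 10% of the list. The Myc window had a peak of 2.74 (chromosome 15 from 61916701 to 61916879), 7.74 kb from the LIF-dependent enhancer. The Pim1 window had peaks of 3.14 (chromosome 17 from 29562552 to 29562702) and 2.74 (from 29655128 to 29655351) beside its 5 strong ones. Without the Pim1 window, the 26 remaining peaks had a median fold of 3.11 (2.36 to 6.17).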

How the data were processed

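Peaks were listed for the plasmid input (1 sample), for merged reporter samples with LIF (3) and after RA (3), and for RARA ChIP-seq (1, with 1 input sample). The tools named are MACS2, Bowtie2, deepTools, SAMtools and UMI-tools, with mm9, per the submitters' processing notes; no version, setting or order was stated there. In the deposited lists, which have no header, each peak has a score (10 times its −log10 q, cut to a whole number), a ratio (fold enrichment of the summit) and the −log10 q itself. The deposited table of mESC enhancers adds an activity score of unstated scale. Peak names give merged samples for the 3 enhancer lists; no depth was given.

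Rows sharing a region were collapsed to the highest −log10 q, leaving 186959 of 195417 input, 4674 of 4787 mESC, 601 of 616 LIF-dependent, 382 of 386 RA-induced and 9757 of 11366 RARA rows. Membership was by midpoint, and overlap meant at least 1 bp. Coordinates are mm9, counted from 1. The limit for a share of 0 is 3 counts. Members, motifs and gene lists were chosen with earlier results of these data known, and nothing was tested. The rule was to name every enhancer, every RARA peak in library DNA or at an enhancer (otherwise the strongest of a window) and the 2 input regions of highest fold per window; the strong Junb peak outside the library was named after its value was seen. Overlap functions were tested on simulated regions. Tables were made with pandas 2.3.3 and NumPy 2.4.6 in Python 3.11.15, intervals with SciPy 1.17.1, and plots with Matplotlib 3.10.9.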

Additional observations from a re-analysis of the deposited data

How the results depend on the processing

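No paired analysis was possible because the lists come from merged samples and hold no value per replicate, and for the same reason no replicate could be left out. Of 150 values under alternatives, for 11 results, 141 stayed within 1.5 times a count or within the interval of a share, and 9 moved. Most alternatives left out 1 window, and intervals of shares over few enhancers are wide, so staying within them is a weak check. The LIF-dependent share counted as unmoved also in the settings whose interval held the background of 12.8%. With windows narrowed by 50 kb on each side, 278 input regions, 3 LIF-dependent enhancers (those of Stat3, Socs3 and Junb) and 24 RARA peaks lay inside; widening by 50 kb brought in 1 RA-induced enhancer. With the upper 50% by fold of the enhancer and RARA lists, the windows held 6 mESC enhancers, 1 LIF-dependent enhancer and 21 RARA peaks, and 1.41% of input regions held an mESC enhancer, beside 1.24% of all. The looser STAT motif was found in the promoter of 1 gene. Fewer regions enter under the narrower and stricter settings by construction. With each window left out in turn, the LIF-dependent share of mESC enhancers ran from 30.8 to 41.7%, and their share with RARA from 25.0% (without Klf5) to 41.7%. RARA peaks numbered 26 without the Pim1 window.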
